A study of Mus musculus with 2 samples.

Results

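Type 1 conventional dendritic cells (cDC1) of the mouse omentum were taken as the cells with a transcript of Xcr1 or Clec9a, transcripts of at least 2 of the 7 genes Irf8, Batf3, Naaa, Wdfy4, Cadm1, Tlr3 and Itgae, and none of Fscn1, Siglech, Cd79a and Cd3e. Transcripts were counted as unique molecular identifiers (UMIs), the tags that mark single captured RNA molecules. The rule was applied to cells with 200 to 7500 detected genes, and it took 190 of 14414 cells. Of these, 170 were among 8680 cells of wild-type (WT) mice and 20 among 5734 cells of Postn-DTR mice, so most of what follows describes the WT cells. Members were thus chosen by measured transcripts, and the levels of the rule's genes are no finding.

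The omentum, an apron of visceral fat in the peritoneal cavity, holds small leukocyte clusters known as milky spots, and its cells were profiled on the droplet-based Chromium platform. Both groups, on a C57BL/6 background, had been given diphtheria toxin (DT) in a single intraperitoneal injection, and cells were taken 5 days later. Postn-DTR mice are heterozygous (Postn Dtr/+) and carry the diphtheria toxin receptor in the first coding exon of Postn, so that the receptor is made by any cell using that promoter, whereas WT mice carry no receptor. Each group is 1 library pooled from several mice, ages were not stated, and no test between the groups could be made. All intervals given are at 95% and reflect counting error, not the spread between mice.

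cDC1 are the dendritic cells best known for taking up dying cells and presenting their antigens on MHC class I to CD8 T cells. They depend on the transcription factors IRF8, BATF3 and ID2, use the receptor CLEC9A to recognise exposed actin of dead cells, and carry XCR1, the receptor for the chemokine XCL1 that CD8 T cells and NK cells secrete. Their closest relatives, the type 2 conventional dendritic cells (cDC2), mainly present antigen on MHC class II to CD4 T cells and depend on other factors, among them IRF4 and ZEB2.

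The defining genes were present in the gate, but they did not lie evenly over its cells. Clec9a (chr6:129408862-129424763, plus strand of GRCm38) gave a UMI in 95.9% of the WT members, and Xcr1 (chr9:123852315-123862029, minus strand) in 74.7%. For comparison, among 3033 WT T cells, which should lack both genes, 0.791% had a UMI of Clec9a and 0.429% one of Xcr1, at a median depth of 4789 UMIs against 18152.5 in the gate. Naaa, an acid amidase, was found in 91.2% of the WT members, and Wdfy4, which is needed for cross-presentation, in 92.9%. Clec9a on its own did not mark the gate, since 63.0% of the 54 WT plasmacytoid dendritic cells also held it. Several of the further genes are shared with other cells as well: among WT cDC2, 65.7% had a UMI of Batf3 and 65.7% one of Wdfy4, and among WT B cells 67.7% had one of Irf8.

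Counting how many of the 7 further genes each WT member held showed cells at both ends and few between. There were 17 cells with 2 of the genes, 25 with 3, 7 with 4, 20 with 5, 51 with 6 and 50 with 7. Just outside the threshold lay 15 WT cells with 1 of the genes and 5 with none. An Xcr1 UMI was seen in 5 of the 42 WT cells with 2 or 3 genes (hereafter low-score cells) and in 122 of the 128 with 4 to 7 (high-score cells). The cDC2 receptor gene Cd209a showed the opposite order, with a UMI in 24 of 42 low-score and 2 of 128 high-score cells, and in 13 of the 15 cells just outside. In Postn-DTR the 20 members comprised 4 low-score and 16 high-score cells. The split at 4 genes was chosen after the data were seen.

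**Figure D1:**
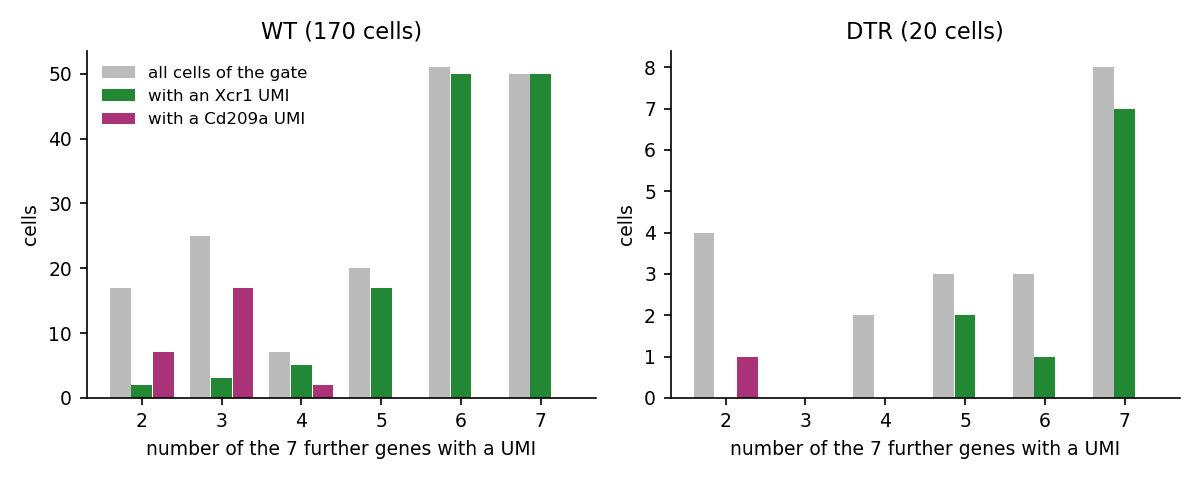
Number of cells of the cDC1 gate (vertical axis) by how many of the 7 further genes had a UMI (horizontal axis), in WT (left) and Postn-DTR (right), for all cells (grey), cells with an Xcr1 UMI (green) and cells with a Cd209a UMI (purple). In WT, 101 of 170 cells held 6 or 7 of the genes, and most cells with a Cd209a UMI held 2 or 3.

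Thus the label cDC1 held for most of the high-score cells, which made up 75.3% of the WT gate (interval 68.1 to 81.6%). The low-score cells carried on average more cDC2 and macrophage genes. Cst3, encoding the protease inhibitor cystatin C, reached a mean of 277 UMIs per 10000 UMIs of a cell in high-score and 71.7 in low-score WT cells, with medians of 281 and 33.0. Zeb2, a transcription factor of cDC2 and monocytes, was at 0.16 and 3.75. Csf1r, the receptor for macrophage colony-stimulating factor, was at 0.12 and 2.51. Fcer1g, a signalling chain of activating Fc receptors, was at 2.05 and 18.4, and S100a4, a calcium-binding protein of motile myeloid cells, at 0.40 and 9.84. Cd8a, encoding the α chain that many mouse cDC1 display, had a UMI in 68 of 128 high-score and in 0 of 42 low-score cells. Thinned to 2000 UMIs, Cd8a was seen in 17.2% of 128 high-score and 0 of 38 low-score cells, where the share of cells with a UMI may be up to 7.89% by counting alone. Of 21 listed cDC2 genes with enough UMIs, 20 were at least 2-fold higher in the low-score cells and none lower, while of 23 listed cDC1 genes outside the rule 19 were at least 2-fold lower and none higher. Over all 6315 genes compared, 7.35% were at least 2-fold higher and 7.11% at least 2-fold lower in low-score cells, with a median log2 ratio of -0.0017. The low-score cells were also shallower, with a median of 11620.5 UMIs against 20744. With every cell thinned to 2000 UMIs, Cd209a remained in 42.1% of 38 low-score and 1.56% of 128 high-score cells. This thinning left out 4 low-score cells. Among them, cells of 1798, 1812 and 1830 UMIs held Xcr1 and no Cd209a, with Cst3 at 306, 232 and 229. Whether such cells scored low through depth alone was not tested. Conversely, a high-score cell of 25081 UMIs had no Xcr1 UMI, with Cst3 at 61.8 and Cd209a at 27.1.

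**Figure D2:**
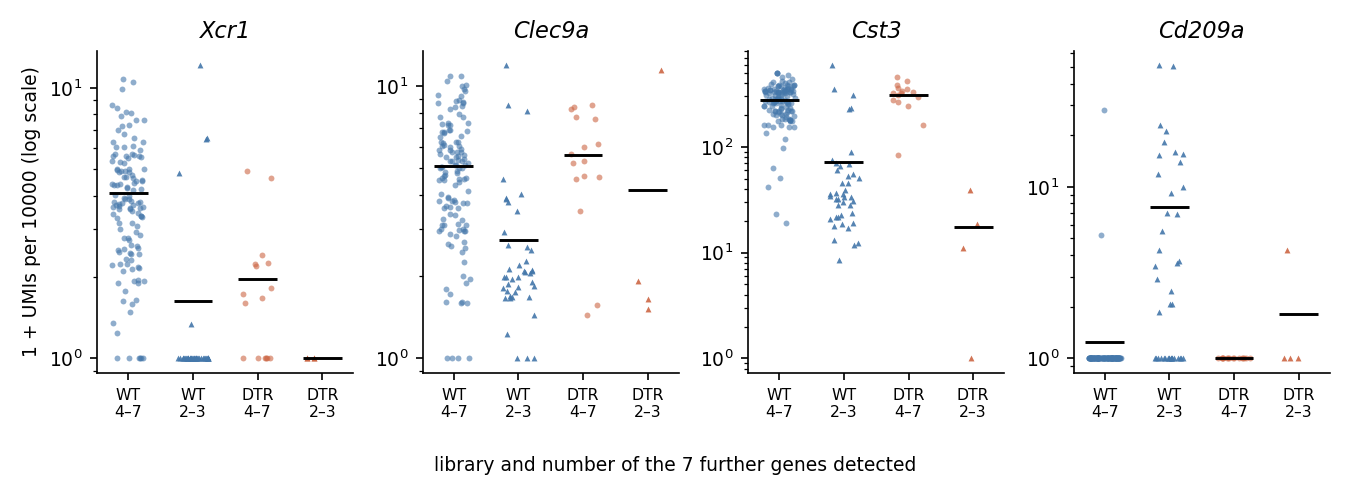
Level of Xcr1, Clec9a, Cst3 and Cd209a in single cells of the gate, as 1 plus UMIs per 10000 on a log axis, for WT and Postn-DTR cells with 4 to 7 and with 2 or 3 of the further genes; each point is a cell and the black bar is the mean. Most high-score cells sat high for Cst3 (WT mean 277) and at the floor for Cd209a. The low-score WT cells were mixed, with a Cst3 mean of 71.7 and median of 33.0, and a Cd209a UMI in 24 of 42.

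The 4 genes that must be at 0 removed many cells with cDC1 genes. In WT, 308 cells had a UMI of Xcr1 or Clec9a, and 254 of them had 2 or more of the 7 further genes. Of these, 84 were left out, by Siglech (34 cells), Cd79a (34), Cd3e (21) or Fscn1 (16), and 36 of the 84 held 4 or more of the further genes. In Postn-DTR 11 of 31 cells were left out. The fascin gene Fscn1 marks mature dendritic cells, so the gate held few of these by construction: Ccr7, the receptor that guides dendritic cells to lymph nodes, had a UMI in 4 of 170 WT members, all low-score cells, and in 0 of 128 high-score cells, where the share of cells with a UMI may be up to 2.34% by counting alone. In Postn-DTR 2 of 16 high-score cells held it.

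Markers of other cell types were seen at low summed levels in many members and at high levels in few. T cell markers gave a UMI in 10 of 170 WT members and 0 of 20 Postn-DTR members, with Trac and Trbc2 at 0, and the summed level reached 1.18 UMIs per 10000. Neutrophil markers were found in 30 WT and 4 Postn-DTR members, summing to between 0 and 771 and between 0 and 494, and macrophage markers in 86 and 8, with a highest sum of 240 in a WT cell. B cell markers were found in 156 of 170 WT members through Ighm (148 cells), while Pax5 was at 0. Plasmacytoid markers were found in 158 WT members and plasma cell markers in 138, with median summed levels of 1.66 and 1.16 UMIs per 10000. The highest plasmacytoid sum was 34.6, in a low-score WT cell. Stromal markers were found in 30 WT members and 1 Postn-DTR member, with a highest sum of 67.3 in a high-score WT cell. NK cell markers were found in 17 and 1, with a highest sum of 13.4. Only 5 WT members and 1 Postn-DTR member had neutrophil or macrophage markers summing to more than 20 UMIs per 10000. No member was called a doublet by Scrublet, which called 1 of 8680 WT cells and so did not work in that library, and 2.01% of the Postn-DTR cells. The libraries shared 65 barcodes, among them 1 of a member. Their total depths were alike, 80640925 UMIs in WT and 81120426 in Postn-DTR, and the gate held 3282767 and 295021 of these. The depth per cell was not, with medians of 5618 UMIs in WT and 8456.5 in Postn-DTR.

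cDC1 made up a smaller share of the cells in Postn-DTR than in WT. They were 1.96% of the WT cells (1.68 to 2.27%) and 0.349% of the Postn-DTR cells (0.213 to 0.538%), a ratio of 0.178 (0.112 to 0.283). High-score cells gave a ratio of 0.189 (0.113 to 0.318) and low-score cells 0.144 (0.0517 to 0.402), with overlapping intervals. The ratio was 0.202 for cDC2 (105 and 14 cells), 0.353 for mature dendritic cells (30 and 7), 0.533 for plasmacytoid dendritic cells (54 and 19) and 0.239 for T cells (3033 and 479). Shares are relative, and in the same libraries antibody-secreting cells had a ratio of 4.81 and neutrophils 4.19. With both of these left out of the denominator, cDC1 were 2.20% of the WT and 0.690% of the Postn-DTR cells, a ratio of 0.314. Among the cells of the 4 dendritic cell gates alone, cDC1 were 47.4% of 359 cells in WT (42.1 to 52.7%) and 33.3% of 60 in Postn-DTR (21.7 to 46.7%). Fewer cDC1 and a greater number of other cells captured cannot be told apart from such shares.

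**Figure D3:**
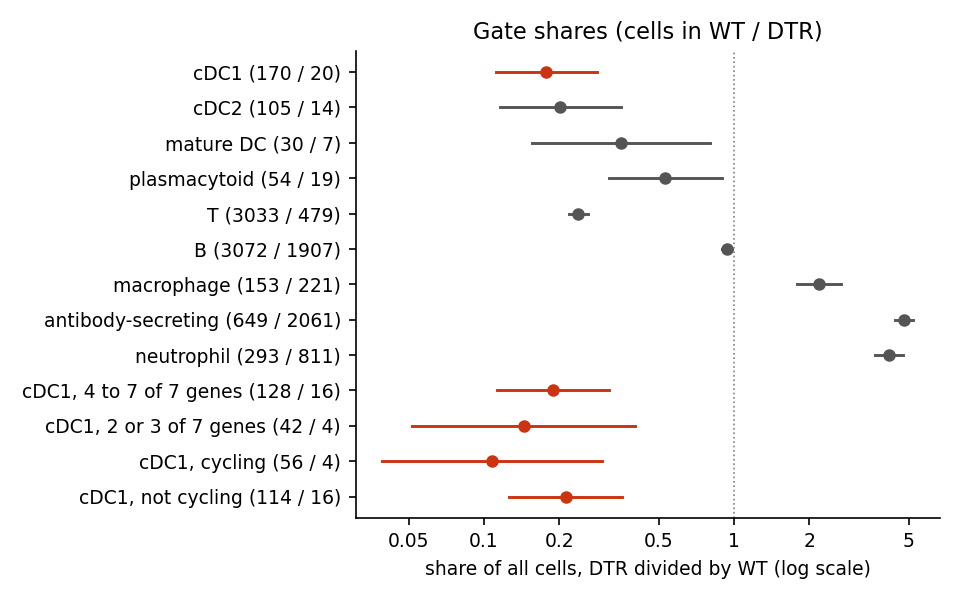
Ratio of the share of cells in Postn-DTR to that in WT for each gate (log axis), with 95% Katz intervals for counting error; sets of cDC1 are in red and the dashed line marks equal shares. The cDC1 ratio of 0.178 lies close to those of cDC2 (0.202) and T cells (0.239), and the B cell gate (0.940) lies near 1. The B cell gate does not exclude antibody-secreting cells, so its ratio is not that of B cells alone. Its median depth was 6542 UMIs in WT and 15025 in Postn-DTR.

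Within WT, cDC1 were next compared with the 105 cDC2, taken as cells with Cd209a, 2 or more of Clec10a, Sirpa, Kmo, Tnip3, Cd209d and Itgax, and none of Xcr1, Clec9a and 6 genes of other cells. Gpr141b, an orphan G protein-coupled receptor, was the gene with the highest ratio. It was at 1.07 UMIs per 10000 in cDC1 (397 UMIs in 112 cells) and had no UMI in cDC2, at least 50.4-fold higher when 3 UMIs are allowed over the cDC2. Gcsam, a signalling adaptor first described in germinal center B cells, gave 344 and 0 UMIs (at least 43.6-fold higher), and Cd8a 263 and 0 (at least 33.4-fold). Ifi205, an interferon-inducible gene, was at 2.60 in cDC1 and 0.06 in cDC2, a log2 ratio of 4.99 (interval of the ratio of summed UMIs 4.26 to 6.21). Rab7b, a small GTPase of late endosomes, was at 2.76 and 0.08 (log2 ratio 4.75), and the lysosomal thioesterase gene Ppt1 at 8.63 and 0.38 (4.45). Cxcr3, the receptor for CXCL9 and CXCL10, was at 0.69 and 0.01 (4.37, interval 3.67 to 8.59). P3h2, encoding a collagen prolyl hydroxylase, gave 162 and 0 UMIs (at least 20.6-fold higher), and the proton-sensing receptor gene Gpr4 114 and 0 (at least 14.5-fold). The other genes among the 15 highest were Serpinb6b, Plpp1, Dbn1, Snx22, Fam149a and Agpat3, with log2 ratios from 4.29 to 4.60 and lower ends of their intervals from 3.14 to 3.89. Each of the 15 was seen in 64 to 150 of the 170 cDC1.

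Upstream sequence was read from RefSeq promoters on GRCm38.p6 for these 15 genes, which were chosen for their ratio, and for Xcr1, Clec9a and the 20 genes highest against all other WT cells. Of 28 genes, 22 were matched. The 250 bases before the start were searched on both strands for 3 motifs, where N is any base: an element of interferon regulatory factors (IRF), spelled GAAA, NN and GAAA in a row, an Ets-IRF composite, spelled GGAA, NN and GAAA in a row, and TGANTCA, bound by AP-1 factors such as BATF3. The first was found in 2 of the 22 genes (9.09%) and in 3.46% of all 27025 genes with a promoter. The composite was found in 1 gene (4.55% against 2.68%), and the AP-1 element in 1 (4.55% against 7.82%). A match of this kind is a description of the letters and no evidence of binding. The windows of Xcr1, a defining receptor of the rule that held no match, and of the 3 genes with an IRF or composite match are shown from 5′ to 3′ on the strand of the gene, with the matched bases in capitals. They span chr9:123862030-123862279 for Xcr1 (minus strand), chr13:19732952-19733201 for Gpr141b (minus strand), chr1:174031756-174032005 for Ifi205 (minus strand) and chr6:71373177-71373426 for Cd8a (plus strand).
Xcr1: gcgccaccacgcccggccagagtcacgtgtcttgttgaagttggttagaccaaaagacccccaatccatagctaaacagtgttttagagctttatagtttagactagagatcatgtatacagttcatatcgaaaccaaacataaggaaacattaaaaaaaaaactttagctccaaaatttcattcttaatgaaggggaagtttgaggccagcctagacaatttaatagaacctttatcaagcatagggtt
Gpr141b: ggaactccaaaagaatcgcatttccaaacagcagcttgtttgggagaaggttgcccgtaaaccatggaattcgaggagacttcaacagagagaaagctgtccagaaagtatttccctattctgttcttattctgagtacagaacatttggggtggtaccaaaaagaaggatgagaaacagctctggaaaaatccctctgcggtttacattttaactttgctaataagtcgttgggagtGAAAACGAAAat
Ifi205: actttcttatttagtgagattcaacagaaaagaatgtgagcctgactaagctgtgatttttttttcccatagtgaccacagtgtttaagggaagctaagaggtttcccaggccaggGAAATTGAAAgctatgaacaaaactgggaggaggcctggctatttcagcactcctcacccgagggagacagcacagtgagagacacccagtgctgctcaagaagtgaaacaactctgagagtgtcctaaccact
Cd8a: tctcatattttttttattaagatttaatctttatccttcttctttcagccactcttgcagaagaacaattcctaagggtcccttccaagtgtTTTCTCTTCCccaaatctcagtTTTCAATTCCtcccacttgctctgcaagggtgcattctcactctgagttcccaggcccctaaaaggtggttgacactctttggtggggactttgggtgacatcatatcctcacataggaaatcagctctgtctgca
In Gpr141b the match lies 12 to 3 bases before the start and in Ifi205 134 to 125 bases before it. Cd8a holds 2 composite matches on the opposite strand, 158 to 149 and 136 to 127 bases before the start. Of the 10 genes lowest in cDC1 against cDC2, 5 were matched, and Hilpda and Tnfaip3 held an AP-1 element.

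Genes known to mark cDC1 stood apart from those of cDC2 as groups. Of 23 listed cDC1 genes outside the rule with enough UMIs, 20 were at least 2-fold higher in cDC1 and none lower, with a median log2 ratio of 3.42; over all 7215 genes compared, 6.11% were at least 2-fold higher and 4.89% lower, with a median of 0.07. Id2, which restrains E proteins during cDC1 development, was at 4.80 UMIs per 10000 in cDC1 and 0.37 in cDC2 (log2 ratio 3.63). Mycl, a Myc family factor used by cDC1, was at 1.22 and 0.19 (2.58), and Cst3 at 227 and 27.8 (3.02). The cytokine receptor gene Flt3, on which all conventional dendritic cells depend, was at 1.88 and 1.52 (0.30). Of 23 cDC2 genes, 15 were at least 2-fold lower in cDC1 and none higher (median -1.57). With the high-score cells alone it was 20 of 23 (median -2.97), and 512 of all 6838 genes. Irf4 was at 0.15 and 0.49, and Zeb2 at 1.05 and 3.22, with most of the cDC1 value in the low-score cells.

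Among sensors, cDC1 carried the endosomal Toll-like receptors for microbial profilin. Tlr11 was at 0.42 in cDC1 and 0.06 in cDC2 (log2 ratio 2.47), and its partner Tlr12 gave 113 and 0 UMIs, at least 14.3-fold higher. The scavenger receptor gene Cd36 was at 1.60 and 0.10 (3.71), Ly75, encoding the uptake receptor DEC-205, at 0.41 and 0.02 (3.54), and Havcr2, encoding the phosphatidylserine receptor TIM-3, at 1.19 and 0.54 (1.12). The adaptor gene Myd88 was at 0.47 and 0.78 (-0.71). In all 5 of 19 sensing genes were at least 2-fold higher and 2 lower, against 6.11% and 4.89% of all 7215 genes.

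Transcripts of MHC class II were abundant in both subsets, and a few genes of the class I machinery were higher in cDC1. H2-Aa, a class II chain, was at 125 and 151 UMIs per 10000, and Cd74, its invariant chain, at 341 and 414. Of 15 class II genes 1 was at least 2-fold higher and 3 lower (median log2 ratio -0.28); the lower ones included H2-DMb2 (1.35 and 3.50) and the protease gene Ctss (5.22 and 10.9). Psmb9, a subunit of the immunoproteasome, was at 7.54 and 2.66 (log2 ratio 1.50), and the peptide transporter genes Tap2 and Tap1 were at 2.33 and 0.98 (1.23) and at 3.03 and 1.71 (0.82). Cybb, the catalytic chain of the phagosomal oxidase, was lower in cDC1 (1.46 and 4.95), at 0.26 in the high-score and 5.14 in the low-score cells. The class I list as a whole held 3 higher and 1 lower of 24 genes (median 0.21), and 6 and 2 with the high-score cells alone. Over all genes 6.11% were higher and 4.89% lower, and 475 and 512 of 6838 with the high-score cells.

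**Figure D4:**
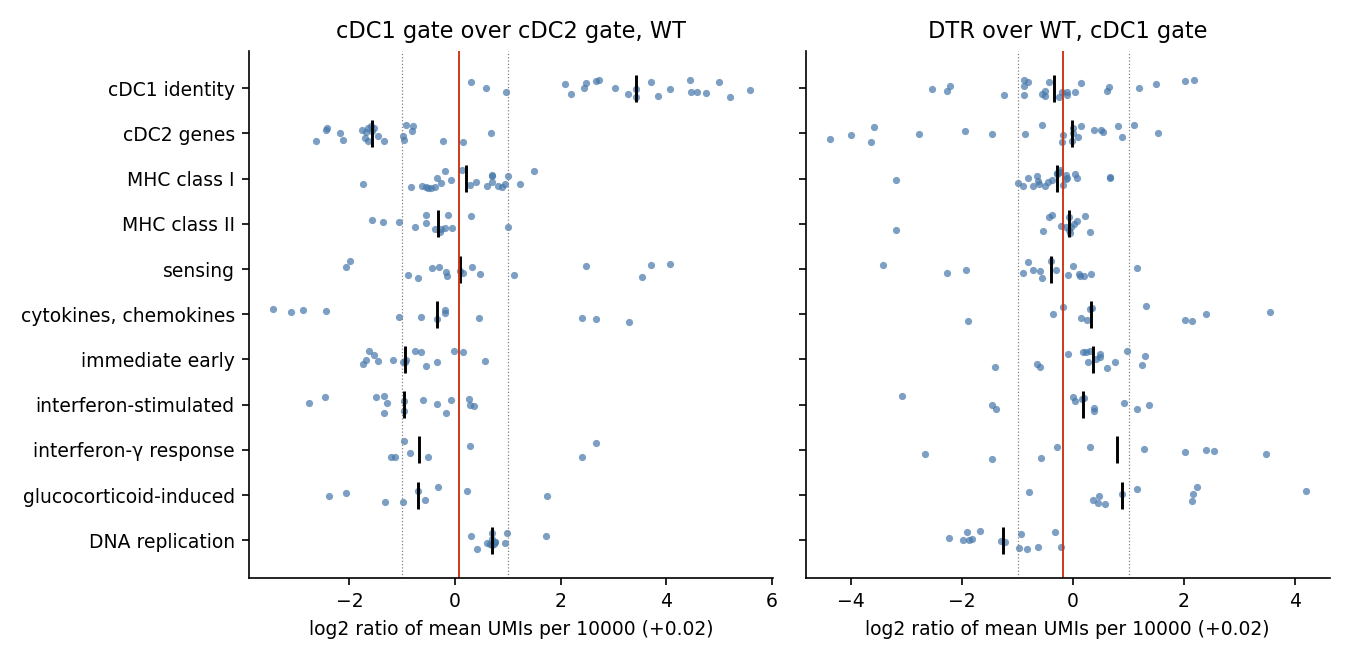
Log2 ratio of each listed gene (dots) for 11 gene lists, cDC1 against cDC2 in WT (left) and Postn-DTR against WT within cDC1 (right); the black tick is the median of the list, the red line that of all genes compared and the dotted lines mark 2-fold. On the left the cDC1 list lies far to the right (median 3.42) and the cDC2 list to the left (median -1.57); on the right the glucocorticoid-induced list (median 0.89) and the DNA replication list (median -1.26) lie farthest from the red line at -0.17.

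The 10 genes lowest in cDC1 against cDC2 included regulators of NF-κB signalling. Nfkbiz, a regulator of NF-κB targets, was at 1.02 and 8.37 UMIs per 10000 (log2 ratio -3.01), Tnfaip3, which dampens the same pathway, at 0.81 and 5.48 (-2.72), and Tnfsf9, the costimulatory ligand 4-1BBL, at 0.64 and 5.66 (-3.11). Ptgs2, encoding cyclooxygenase 2, was at 0.23 and 2.35 (-3.23). Tgm2, Hilpda, Klrd1, Ank, Rtp4 and Ccrl2 completed the 10 lowest, with log2 ratios from -3.43 to -2.76. All 10 were higher in low-score than in high-score cells. Of 16 immediate early genes 6 were at least 2-fold lower and none higher (median -0.95), and of 15 maturation genes 5 were lower and none higher (median -0.90). Over all 7215 genes 4.89% were lower and 6.11% higher (median 0.07).

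Costimulatory and inhibitory ligands and receptors also went both ways. Btla, an inhibitory receptor, was at 1.31 in cDC1 and 0.27 in cDC2 (log2 ratio 2.20), and Cd80, a ligand of CD28 and CTLA-4, at 0.19 and 0.54 (-1.40). Of 12 such genes 2 were at least 2-fold higher and 3 lower (median -0.61). Over all 7215 genes 6.11% were higher and 4.89% lower (median 0.07). The counts of the lists that follow are read beside these shares, and several lie near them. Among chemokine and adhesion receptors, Cxcr3 was the only 1 of 16 at least 2-fold higher, and 3 were lower, among them Icam1 (1.07 and 4.34, -2.00), the ligand of LFA-1. Among 22 transcription factors of dendritic cell development 3 were at least 2-fold higher (Id2, Mycl and Zeb1) and 5 lower, including the NF-κB subunit gene Relb (0.49 and 1.44) and Bcl11a (log2 ratio -1.25), which is also used by plasmacytoid cells. Of 17 growth factor and cytokine receptors none was at least 2-fold higher and 2 were lower: Il2rg, the common γ chain, was at 1.02 and 3.46, and Il10ra, a chain of the IL-10 receptor, at 1.19 and 3.05. Of 15 type I interferon-stimulated genes none was at least 2-fold higher and 6 were lower (median -0.96), such as Isg15, a ubiquitin-like modifier (0.24 and 0.71), but the median was 0.27 over the 5 with at least 200 UMIs and 0.24 over the 3 left after thinning, with none lower. Of 6 genes of retinoic acid synthesis and response 3 were lower and none higher, among them the receptor gene Rara (0.31 and 0.68).

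Cytokine genes were divided between the subsets. Il1b was at 9.76 in cDC1 and 31.7 in cDC2, and Tnf at 0.09 and 1.12. Cxcl9, a chemokine for CXCR3-bearing T cells, was higher in cDC1 (1.03 and 0.15, log2 ratio 2.66) and came from 38 of 170 cells. Il12b, the shared subunit of IL-12 and IL-23, gave 58 UMIs in 8 cDC1 (0.38 and 0.02). Of these, 36 lay in 1 low-score cell, and the mean over the high-score cells was 0.09. Il12a and Il10 gave none. Of 13 such genes 3 were at least 2-fold higher and 5 lower, against 6.11% and 4.89% of all 7215 genes.

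The cDC1 list was also higher in cDC1 than in the other dendritic cells, where the rule had removed cells with Fscn1 or Siglech. Compared with 30 mature dendritic cells, 19 of 23 cDC1 genes were at least 2-fold higher. Compared with the 54 plasmacytoid dendritic cells, 20 of 24 cDC1 genes were higher and 1 lower. The median log2 ratio over all genes was 0.13 against mature cells (6648 genes) and -0.11 against plasmacytoid cells (6950 genes). Shares of all genes at least 2-fold apart were not counted here, so the list counts have no such base rate. Depth also differed, with medians of 18152.5 UMIs in cDC1, 9362.5 in mature and 8213.5 in plasmacytoid cells. The mature and plasmacytoid gates were themselves chosen by measured transcripts, among them genes of the maturation and plasmacytoid lists. Counts for those lists were therefore largely set by the selection and are given for description only. Of 23 maturation genes, 20 were at least 2-fold lower (median -3.81) in cDC1 than in mature dendritic cells. All 7 plasmacytoid markers were lower in cDC1 than in plasmacytoid cells. The highest genes of cDC1 against all other WT cells, named for description only, began with Ifi205, Rab7b and Cst3, and Cst3 was at 227 against 5.29 UMIs per 10000 in the other cells. Apart from genes already named, these 20 included Sept3, Anpep, which encodes aminopeptidase N, Rtl8c, the fatty acid receptor gene Ffar4, Shtn1, Zfp366, the serotonin receptor gene Htr7 and Pianp.

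Among themselves, the WT cDC1 varied most in calprotectin genes and in loci that overlap ribosomal RNA. After thinning to 2000 UMIs, the ratio of variance to mean over 166 cells had a median of 1.13 over 874 genes. It was 70.8 for S100a9 and 47.2 for S100a8, the genes of calprotectin, a protein abundant in neutrophils, and 97 of the 146 S100a9 UMIs lay in 1 cell. Values of 55.4 and 17.7 were seen for Gm42418 and AY036118, the loci that overlap ribosomal RNA, and 8.02 for Lars2 and 14.8 for the nuclear RNA Malat1. The genes Lyz2 (28.0), encoding lysozyme, Cst3 (17.0), Cd74 and Mt1 (8.61), a metallothionein, completed the 10 most variable. Cst3 ran from 7.54 to 589 UMIs per 10000 over the 170 cells, with quartiles of 101 and 330, and the low-score cells supplied most of the lower end.

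Mitotic transcripts were common in the WT cDC1. At least 3 of 12 mitotic genes were seen in 56 of 170 cells (32.9%, 25.9 to 40.6%), all 12 in 30 cells and none in 65. After thinning the share was 22.3%, against 14.4% of cDC2, 2.99% of T cells and 3.82% of B cells. In Postn-DTR 4 of 20 cDC1 met the criterion (20%, 5.73 to 43.7%), or 21.1% after thinning. High-score and low-score cells both included cycling cells in WT (35.2% and 26.2%). The cycling cells were deeper, with a median of 26007 UMIs against 16678.5.

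Cycling cDC1 also held more transcripts of DNA replication genes. Of 13 such genes 12 were at least 2-fold higher in cycling than in other WT members and none lower (median log2 ratio 1.92); over all 6315 genes 7.76% were at least 2-fold higher and 3.14% lower. Rrm2, a subunit of ribonucleotide reductase, gave 298 UMIs in cycling and 1 in other cells, and the mitotic motor gene Kif11 gave 239 and 0. Cdc20, an activator of the anaphase-promoting complex, gave 200 and 1. Ngp and Ltf, granule genes of neutrophils, were also among the 5 highest, but 1 cell held 90.5% and 92.1% of their UMIs. Of 23 cDC1 genes 2 were at least 2-fold lower and none higher. Among the 5 lowest, Cxcl9 was at 0.07 in cycling and 1.50 in other cells (log2 ratio -4.16), with a UMI in 2 of 56 and 36 of 114 cells. Gadd45b, a stress-response gene, was at 0.04 and 1.10 (-4.32). The remaining ones were C1qa, C1qb and Ccl8, of which 1 non-cycling cell held 83.8%, 82.3% and 97.6%.

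The 20 Postn-DTR cDC1 were then set beside the 170 of WT. Over 7876 genes, 5.62% were at least 2-fold higher and 13.4% lower in Postn-DTR, and the median log2 ratio was -0.17, so ratios are read against that shift. Higher genes made up 29.6% of all calls, a share that was 42.3% with 0.1 in place of 0.02 UMIs per 10000 added, 19.3% in high-score cells and 19.7% without the shallowest Postn-DTR cell (955 UMIs). That cell alone decided 6 of the 8 highest genes (Snx29, Serpinb6a, Prr3, Slc37a3, Arf2 and Edc3), whose log2 ratios of 2.41 to 2.96 became -0.03 to 0.80 without it.

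Several genes known to be induced by glucocorticoids were higher in the Postn-DTR cDC1. Fkbp5 (chr17:28399094-28517527, minus strand), which encodes a co-chaperone of the glucocorticoid receptor, was detected in 25 of 170 WT cells and in 16 of 20 Postn-DTR cells. Its lowest, median and highest values were 0, 0 and 1.54 UMIs per 10000 in WT, and 0, 1.25 and 10.5 in Postn-DTR, where the highest was a single UMI of the shallowest cell. The groups overlapped, and 4 Postn-DTR cells had no UMI. The means were 0.09 and 2.04, a log2 ratio of 4.20 (interval of the ratio of summed UMIs 3.31 to 4.65), and the ratio lay between 3.48 and 4.78 in 12 other treatments of the data. Mt1 (chr8:94179082-94180327, plus strand) was at 1.90 in WT and 8.57 in Postn-DTR (log2 ratio 2.16), with a UMI in 81 of 170 and 17 of 20 cells. Its WT mean was 0.72 in high-score and 5.48 in low-score cells, and in high-score cells alone the log2 ratio was 3.82. The phosphatase gene Dusp1 was at 7.21 and 16.1 (1.15), and Il1r2, the decoy receptor for IL-1, at 0.29 and 1.45 (2.24). The Postn-DTR cell with most Il1r2 held 10 of its 35 UMIs and also 193 UMIs of S100a9 and 117 of Retnlg, both neutrophil genes. The log2 ratio of Il1r2 was 1.74 without members holding neutrophil or macrophage RNA and 1.09 after thinning to 2000 UMIs. Tsc22d3, encoding the leucine zipper protein GILZ, was at 0.89 and 1.66 (0.89), whereas the kinase gene Sgk1 was at 2.30 and 1.32 (-0.79). Of 11 such genes 5 were at least 2-fold higher and none lower (median 0.89), and 5 of 8 with high-score cells that were not cycling (median 1.41). Over all genes 5.62% were higher and 13.4% lower in the former comparison, and 163 and 725 of 5540 in the latter. The fifth gene, Ddit4, had 62.1% of its UMIs in 1 cell.

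Higher Fkbp5 in Postn-DTR was not particular to cDC1. The share of cells with a UMI went from 14.7 to 80.0% in cDC1, 7.62 to 78.6% in cDC2, 20.4 to 73.7% in plasmacytoid cells, 14.2 to 34.9% in T cells and 7.45 to 33.0% in B cells. After thinning to 2000 UMIs it was 1.81% of 166 WT and 21.1% of 19 Postn-DTR cDC1. For Mt1 the shares were 47.6 and 85.0% in cDC1 and 44.8 and 78.6% in cDC2, but 56.7 and 42.9% in mature dendritic cells. Lifr, the receptor for leukemia inhibitory factor, was among the 8 highest genes, with a UMI in 12 of 170 and 11 of 20 cDC1 (0.08 and 0.51).

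**Figure D5:**
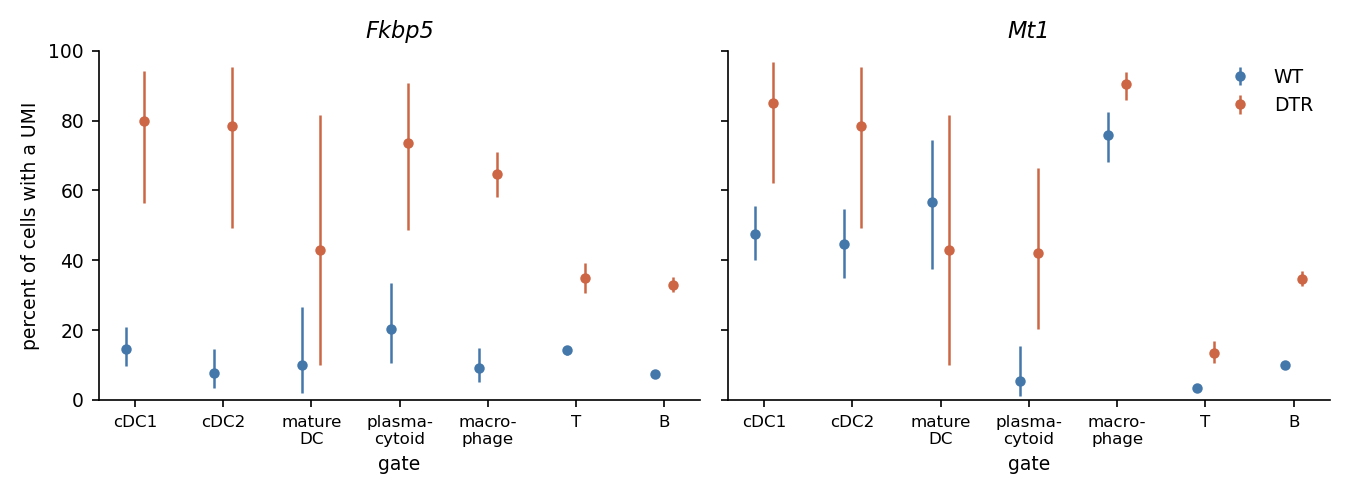
Percent of cells with a UMI of Fkbp5 and of Mt1 by gate, in WT (blue) and Postn-DTR (orange), with 95% Clopper-Pearson intervals for counting error. For Fkbp5 the Postn-DTR value lies above the WT value in every gate shown, from 14.7 to 80.0% in cDC1, and for Mt1 in all but the mature dendritic cells.

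Several interferon and maturation genes of the Postn-DTR cDC1 had most of their UMIs in single cells. Cxcl10 was at 0.45 in WT and 2.44 in Postn-DTR, in UMIs per 10000, but 84 of its 92 UMIs lay in 1 cycling cell. The same cell held 40 of 43 UMIs of Socs1, an inhibitor of cytokine signalling, 35 of 49 of Irf1, 63 of 127 of Cxcl9, 26 of 40 of Tnf and 21 of 36 of Il12b. Without it the log2 ratio of Cxcl10 was -0.71 and that of Irf1 -0.13. A further cell held 21 of 24 UMIs of the guanylate-binding protein gene Gbp2 and 58 of Cxcl9. For Ccr7, 64 of 65 UMIs lay in 1 cell that also held 27 UMIs of Gadd45b and 15 of Il12b. Of 10 interferon-gamma response genes 5 were at least 2-fold higher and 2 lower (median 0.79), and 1 of the lower ones, Iigp1, had no UMI in Postn-DTR. Over all 7876 genes 5.62% were higher and 13.4% lower. Without the cell with most Cxcl10 the list had 2 higher and 4 lower of 9 (median -0.71), and all 7863 genes had 447 higher and 1156 lower.

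Genes of the cDC1 list were spread to both sides in Postn-DTR, with 4 of 24 at least 2-fold higher and 4 lower (median -0.34). Over all 7876 genes 5.62% were higher and 13.4% lower (median -0.17), so the lower count lay near that of any genes. Cst3 was at 227 in WT and 249 in Postn-DTR (log2 ratio 0.14). Sult1a1, a sulfotransferase gene, was at 0.46 and 2.15 (2.18), with a UMI in 72 of 170 and 14 of 20 cells, and Sept3, a septin, at 0.95 and 2.17 (1.18). Gpr33 and Cxcl9 were the other 2 higher ones. Cd8a was at 0.71 and 0.14 (-2.21), with a UMI in 68 of 170 and 2 of 20 cells, Tlr12 at 0.31 and 0.05, Hepacam2 at 1.02 and 0.42, and Rasgrp3 at 0.36 and 0.05. A pair of the rule's own genes also differed, given for description only: Xcr1 was at 2.49 and 0.77, and Itgae, encoding the integrin CD103, at 0.49 and 1.66.

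Many DNA replication genes were lower in the Postn-DTR cells. Of 14, 8 were at least 2-fold lower and none higher (median -1.26), or 7 (median -1.10) with Cdc6, which had no UMI there, set to the bound that 3 UMIs give. Over all 7876 genes 13.4% were lower and 5.62% higher (median -0.17). Mcm3, a subunit of the replicative helicase, was at 0.92 and 0.27 and Rrm2 at 0.67 and 0.16, while Mcm6 (0.74 and 0.17) and the clamp gene Pcna (1.23 and 0.49) were not lower after thinning to 2000 UMIs, with log2 ratios of 0.011 and 0.056. Among cells that were not cycling and had a high score, 3 of 11 were lower and none higher. Over all 5540 genes of that comparison 725 were at least 2-fold lower and 163 higher. Of 24 MHC class I and 15 class II genes none was at least 2-fold higher, and 1 that stands on both lists, Cd1d1, gave 0 UMIs against 60 in WT. The medians were -0.29 for class I and -0.08 for class II, the latter 0.05 in high-score cells, where 1 class II gene was higher and 1 lower. Over all 7293 genes in high-score cells 248 were higher and 1034 lower. H2-Aa was at 125 and 115, the class I chain gene H2-D1 at 22.0 and 13.3 and Psmb9 at 7.54 and 4.30.

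The lowest genes in Postn-DTR had no or 1 UMI there, at a depth of 295021 UMIs over 20 cells. Nck2, an adaptor of actin signalling, gave 108 UMIs in WT and 0 in Postn-DTR, at least 3.24-fold lower, and the calcium channel gene Cacna1s 134 and 0 (at least 4.01-fold). Nedd4, a ubiquitin ligase, gave 211 and 1. The fractalkine receptor gene Cx3cr1 gave 97 and 0 (at least 2.91-fold), and 22 of the 27 WT cells that held it were low-score cells. Nufip1, C2cd3, Zbtb11 and Sirpb1a gave 64 to 113 UMIs in WT and 0 in Postn-DTR, at least 1.92-fold to 3.39-fold lower. Itga4, encoding the α4 integrin of leukocyte homing, had 797 UMIs in 159 WT cells and 28 in 11 Postn-DTR cells (2.76 and 0.88, log2 ratio -1.63), and 6 of 18 genes for chemokine receptors and adhesion were at least 2-fold lower against 2 higher (median -0.54). In high-score cells 3 were lower and 2 higher of 17, and in high-score cells that were not cycling 2 and 2 of 15. Over all genes 1034 were lower and 248 higher of 7293 in the former, and 725 and 163 of 5540 in the latter. With all members 13.4% of 7876 genes were lower and 5.62% higher.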

How the data were processed

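Single-cell RNA of the mouse omentum was read by the Chromium system in 1 WT and 1 Postn-DTR library, each pooled from 3 mice per the study's methods. The labels name a 5′ kit and the methods a 3′ kit, so positional detail within genes was not used. Per the submitters' processing notes the reads were processed with Cell Ranger 6.0.0 on mm10, whereas the study's methods name an earlier version. The deposited matrices hold natural log values, ln(1 + UMIs per 10000), made by the authors. UMIs were recovered from the smallest step of each cell: 99.97% of WT and 99.91% of Postn-DTR values came out whole within 0.1. The files name 19960 genes, and for 1078 rows with no symbol the GENCODE M21 name was used.

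Cells with 200 to 7500 genes were kept, which removed 6 WT and 2 Postn-DTR cells. Levels are means over cells of UMIs per 10000. Log2 ratios had 0.02 added to both levels and were compared over genes with at least 50 UMIs within WT or 30 between libraries, with 2-fold as the threshold. Intervals are exact Poisson, Clopper-Pearson, conditional binomial (summed UMIs) or Katz (ratios of shares), at 95%, and they cover counting error only. A fold against a set without UMIs is a bound from 3 UMIs over the set. With 1 library a group no test or p-value was computed. Shares compared across depths were also thinned to 2000 UMIs, leaving out shallower cells. Doublets were called with Scrublet and not removed. The recovery of UMIs and the ratios were checked on simulated data.

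Genes were named by a fixed rule: the genes of the gate and of 28 gene lists, the 15 highest and 10 lowest against cDC2 (no cell over 20% of UMIs), the 20 highest against the rest of WT, the 8 highest and 8 lowest between libraries (no cell over 25%), the 10 most variable, and the 5 highest and 5 lowest in cycling cells. Only part of the lists is described here. The members, lists and rules were chosen with earlier results of these data known. Python 3.11.15, numpy 2.4.6, scipy 1.17.1, pandas 2.3.3, scanpy 1.11.5 and matplotlib 3.10.9 were used.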

Additional observations from a re-analysis of the deposited data

How the results depend on the processing

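The share of cDC1 in WT was 1.38% when both Xcr1 and Clec9a were required, 1.14% with the rule applied after thinning to 2000 UMIs and 1.47% with at least 4 of the 7 further genes. In Postn-DTR it was 0.174% with both receptors, 0.208% after thinning and 0.690% without antibody-secreting cells and neutrophils in the denominator, where the ratio was 0.314. Of the genes at least 2-fold higher in cDC1 than cDC2 there were 266 with 0.1 added, 84 higher and 111 lower of 1479 after thinning, 151 and 152 of 3070 at a minimum of 200 UMIs, and 932 and 759 of 14254 at a minimum of 1. Higher genes in Postn-DTR numbered 246 from summed UMIs, 75 after thinning (212 lower), 194 at a minimum of 100 UMIs (341 lower), 1051 at a minimum of 1 (1988 lower), 248 with at least 4 of 7, 163 when cycling cells were also left out and 245 without the shallowest Postn-DTR cell. With 0.1 added 434 were lower. Reversed log2 ratios in Postn-DTR were Prr3 -2.81, Slc37a3 -2.46, Edc3 -2.81, Mcm6 0.011 and Pcna 0.056 after thinning; Cxcl10 -1.59, Irf1 -0.23 and Il12b -0.040 without cycling cells; Serpinb6a -0.46 and Edc3 -0.15 with at least 4 of 7, and Serpinb6a -0.89, Edc3 -0.051 and Cxcl10 -0.62 with both changes; Cxcl10 -0.71 and Irf1 -0.13 without the cell with most Cxcl10; and Arf2 -0.027 without the shallowest cell. Thinning and the limit of 4 of 7 genes both left out the shallowest Postn-DTR cell. Leaving out cycling cells removed the Postn-DTR cell with most Cxcl10. The causes of the reversals were not tested further. Settings with at least 4 of 7 genes, and those that left out single named cells, were chosen after seeing the data. Of 58 named genes at least 2-fold different between cDC1 and cDC2, 58 kept their sign and 54 their 2-fold difference in every alternative run; of 50 between the libraries, 40 and 31 did. No paired analysis was possible because each group is 1 library. With 20 cells in Postn-DTR, genes of a few UMIs per library cannot be resolved.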
